A study of Homo sapiens with 10 samples.

Results

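The hypoxia response was examined in LoVo cells through 10 genes, VEGFA, ADM, NDRG1, ANKRD37, KDM3A, CA9, EGLN1, EGLN3, HIF1A and EPAS1. They were taken as a fixed list of symbols, chosen with earlier results of these data known. A gene was read from the probe sets that the platform annotation assigns to its symbol alone. Of the 10 genes, 9 had such a probe set, out of 19775 genes on the array with one, and all 9 passed the filter on low signal, as did 12344 genes in all. CA9, a carbonic anhydrase at the cell surface, had none in the annotation used and was not analysed here. The 9 genes had 20 probe sets, of which 17 passed the filter, and the probe set with the highest mean signal gave each gene's main value. These were 210512_s_at for VEGFA, 202912_at for ADM, 200632_s_at for NDRG1, 227337_at for ANKRD37, 212689_s_at for KDM3A, 223046_at for EGLN1, 222847_s_at for EGLN3, 200989_at for HIF1A and 200878_at for EPAS1.

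The transcripts were measured with 10 Affymetrix HG-U133 Plus 2.0 arrays, each hybridised with RNA of a separate culture of LoVo, an established line of human colorectal cancer cells. The ADMA group (n = 4) was kept for 96 h without serum in the presence of 10 μM asymmetric dimethylarginine (ADMA), a methylated arginine made in the body that inhibits nitric oxide synthase. The serum-starved group (SS, n = 3) was kept for 96 h in the same serum-free medium alone, and the control group (C, n = 3) stayed in medium with 10% fetal bovine serum. No low-oxygen treatment is among the labels, and all groups are cultures of this single line, called biological replicates in the labels.

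In cells with enough oxygen, prolyl hydroxylases of the EGLN family mark the alpha subunits of hypoxia-inducible factor (HIF), which the VHL ubiquitin ligase then sends for destruction. When oxygen runs short the subunits persist, pair with ARNT and switch on genes for glucose use, vessel growth and acid balance. The subunits HIF1A and EPAS1 (HIF-2α) are thus controlled mainly as proteins, which an expression array does not measure. In colorectal tumours the pathway is best known for VEGFA, which draws in blood vessels.

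HIF dimers bind a short core sequence, ACGTG or GCGTG, in hypoxia response elements. RefSeq promoters of GRCh38.p14, 250 bases before to 50 after each start site, were used for 8 of the 10 genes in 10 windows. They were searched for both cores on both strands. No window was used for VEGFA or NDRG1. The sequences below are printed because they show the core near the start of those measured genes whose windows held one. They run 5′ to 3′ on the gene's strand, with the core in capitals.
EGLN1, chr1:231422276-231422320, minus strand: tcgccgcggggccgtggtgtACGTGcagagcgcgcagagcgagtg
ANKRD37, chr4:185396678-185396722, plus strand: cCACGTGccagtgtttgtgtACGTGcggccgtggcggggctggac
KDM3A, chr2:86441325-86441369, plus strand: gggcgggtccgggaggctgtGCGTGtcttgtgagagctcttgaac
ADM, chr11:10304952-10304996, plus strand: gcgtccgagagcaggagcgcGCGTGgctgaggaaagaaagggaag
EPAS1, chr2:46297270-46297314, plus strand: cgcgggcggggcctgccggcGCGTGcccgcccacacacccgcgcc
HIF1A, chr14:61695289-61695333, plus strand: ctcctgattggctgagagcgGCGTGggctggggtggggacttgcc
ANKRD37 had 3 matches to ACGTG, at positions -162, -161 and -143 from its start site. Those at -162 and -161 overlap in the palindrome CACGTG, which reads ACGTG on both strands. EGLN1 carried ACGTG at -13, as did CA9, which was not measured here, at -18 on the opposite strand. GCGTG was found at -101 in ADM, -117 in EPAS1 and -204 in HIF1A. KDM3A has 2 start sites, and the same GCGTG lies at -26 or -116 from them. The EGLN3 window and the second HIF1A window held neither core. ACGTG occurs in 21.4% and GCGTG in 36.5% of 35116 RefSeq promoters of this length, and 48.4% hold either, so a match is common and does not show that HIF binds there.

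Array-wide measurements differed between the groups. Every array had the same trimmed mean signal of 500.1, but the median signal was 91.9 to 98.1 on ADMA arrays, 87.5 to 90.7 on SS arrays and 60.7 to 73.1 on C arrays. Centring each array on its median therefore moves the median log2 difference of all genes to -0.09 for ADMA minus SS and -0.32 for SS minus C, against 0.03 and 0.07 as deposited. The calls moved with it, to 901 genes higher and 2095 lower for ADMA minus SS, against 1935 and 1704 as deposited. For SS minus C they moved to 2014 higher and 5184 lower, against 3738 and 3372, and for ADMA minus C to 1209 and 6101, against 3284 and 2859. The signal at the 3′ end of ACTB over that at its 5′ end, a sign of RNA integrity, was 1.02 to 1.05 in ADMA, 1.13 to 1.23 in SS and 1.01 to 1.08 in C. The same ratio for GAPDH overlapped in all groups, at 0.855 to 0.896 in ADMA, 0.861 to 0.974 in SS and 0.857 to 0.931 in C. The 28S ribosomal RNA control gave 795 to 1052 in ADMA, 1345 to 2014 in SS and 501 to 634 in C, without overlap and in the same order as VEGFA. The part of these measures in the results was not tested. All 10 of 10 epithelial markers were above background on every array, against 2 of 10 endothelial and 2 of 10 fibroblast markers. The summed signal of the epithelial markers was 153300 to 175800 in ADMA, 126300 to 146200 in SS and 91990 to 93540 in C, highest in ADMA. That of the endothelial markers overlapped, at 567 to 849 in ADMA, 600 to 787 in SS and 584 to 651 in C. The summed signal of the fibroblast markers was 1589 to 1859 in ADMA, 2026 to 2180 in SS and 1835 to 2001 in C, highest in SS as for VEGFA. Of the 4 fibroblast markers past the filter, 2 fell in ADMA against SS cells and 2 rose in SS against C cells, the second count being 1 higher and 1 lower after centring. Of the leukocyte markers, 2 of the 8 with a probe set were above background on every array. Their summed signal was 1711 to 2359 in ADMA, 4265 to 4911 in SS and 647 to 979 in C, moving in the same order as VEGFA. LYZ, which encodes lysozyme, made up most of it, with 1244 to 1923 in ADMA, 3845 to 4534 in SS and 379 to 602 in C. ITGAM was above background on all 10 arrays, CD3E, MS4A1 and CSF1R on 9 each, PTPRC, the marker shared by leukocytes, and CD14 on 1 each, and NKG7 on 0. Apart from LYZ, the highest signal of a leukocyte marker on any array was 172. All groups are cultures of the single line LoVo, and the part of these marker transcripts in the results was not tested.

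A gene was called when its adjusted p was under 0.01 (limma, Benjamini-Hochberg over all 12344 genes) and its fold at least 1.2. In ADMA against SS cells, 5 of the 9 genes fell and 0 rose, where 13.8% of all genes tested fell and 15.7% rose. In SS against C cells, 6 of 9 rose and 0 fell, where 30.3% of all genes rose and 27.3% fell. In ADMA against C cells, 4 rose and 2 fell, where 26.6% of all genes rose and 23.2% fell. The median log2 difference of the 9 genes was -0.28 for ADMA minus SS, 0.59 for SS minus C and 0.33 for ADMA minus C, against 0.03, 0.07 and 0.07 over all genes tested. With arrays centred on their medians these medians were -0.40, 0.20 and -0.18, the last with its sign turned, against -0.09, -0.32 and -0.44 over all genes. The calls were then 0 higher and 5 lower for ADMA minus SS, 4 and 2 for SS minus C, and 3 and 4 for ADMA minus C. Over all 12344 genes the calls were 901 and 2095, 2014 and 5184, and 1209 and 6101. The 5 that fell with ADMA were VEGFA, NDRG1, KDM3A, EGLN1 and EGLN3, and the 6 that rose with starvation were VEGFA, EPAS1, KDM3A, NDRG1, ADM and ANKRD37. The 3 comparisons share arrays, so they are not independent of each other. Because the list was chosen with earlier results of these data known, its counts beside those of all genes are a description only. Without SS replicate 1, or without SS replicate 2, 3 of the 5 falls passed, those of EGLN1 and EGLN3 being lost.

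**Figure D1:**
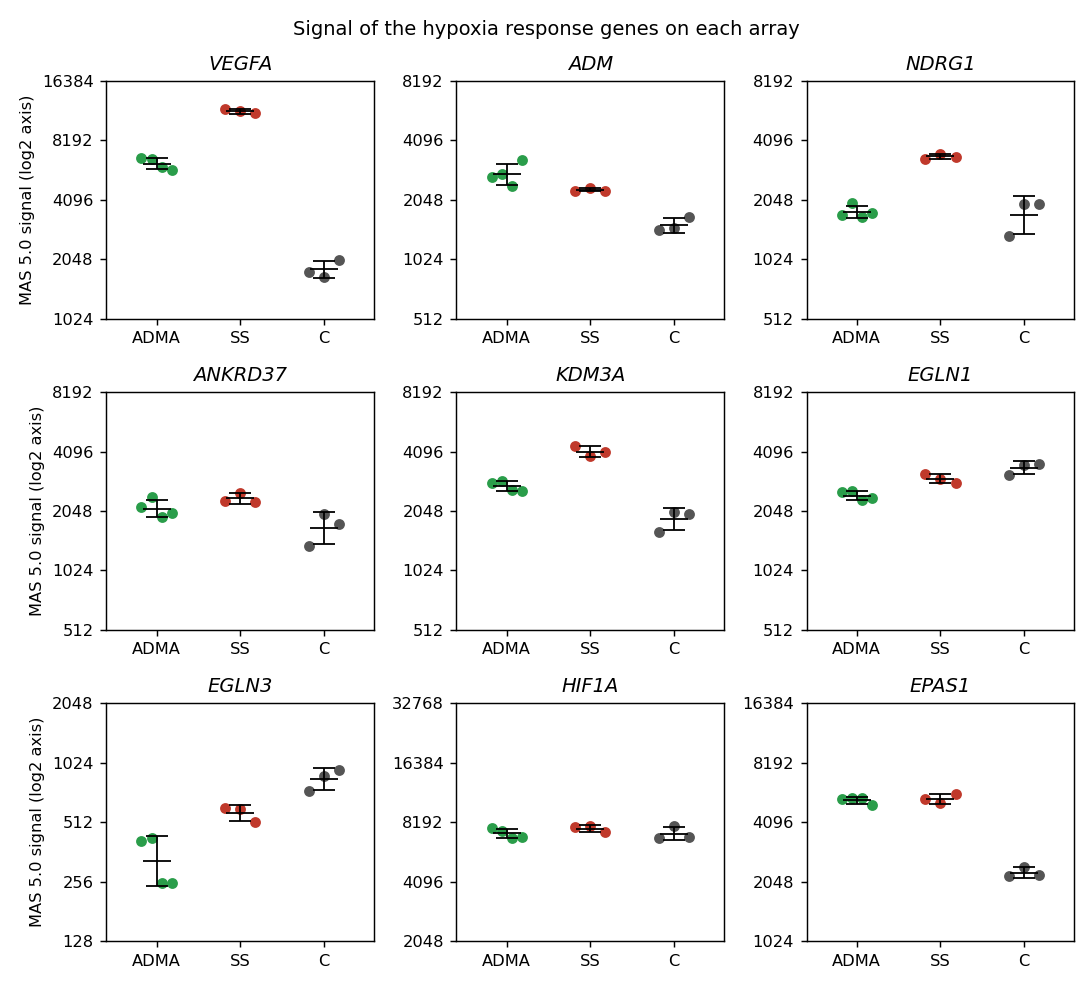
MAS 5.0 signal (log2 axis, each panel spanning the same number of doublings) of the main probe set of each gene on every ADMA, SS and C array, with the mean of the log2 values and their SD as bars. VEGFA, NDRG1 and KDM3A were highest on SS arrays, EPAS1 was similar on ADMA and SS arrays and lower on C arrays, and HIF1A overlapped in all groups.

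VEGFA, the secreted growth factor that drives the sprouting of blood vessels, had the largest rise of the 9 genes in starved cells and fell with ADMA to a level still above control. Its signals were 6650, 6592, 5984 and 5826 on the ADMA arrays, 11832, 11553 and 11218 on the SS arrays, and 1769, 1669 and 2034 on the C arrays. The 3 groups did not overlap. The mean log2 signal was 12.61 ± 0.10 in ADMA (SD, n = 4), 13.49 ± 0.04 in SS (n = 3) and 10.83 ± 0.15 in C (n = 3). VEGFA was 1.84-fold lower in ADMA than in SS cells, a log2 difference of -0.88 (SE 0.07, limma adjusted p = 3.46e-07). It was 6.34-fold higher in SS than in C cells, a log2 difference of 2.67 (SE 0.08, limma adjusted p = 1.26e-12), the 111th highest of the 12344 genes. In ADMA it stayed 3.44-fold above C cells (log2 difference 1.78, limma adjusted p = 6.58e-11). These are bulk cultures, in which fewer cells of a kind and less RNA per cell cannot be told apart.

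The other 3 VEGFA probe sets moved the same way as the brightest. They gave log2 differences of -1.32, -1.09 and -0.94 for ADMA minus SS and of 2.96, 3.49 and 2.26 for SS minus C. All 4 passed the test in both comparisons, where 10.2% of probe sets tested fell with ADMA against SS and 30.3% rose with SS against C. On the probe set 212171_x_at, the signal was 2730, 2619, 2564 and 2710 in ADMA, 6751, 6356 and 6772 in SS, and 756, 876 and 923 in C. The order of the groups was thus the same on a probe set with less than the main one's signal on every array.

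KDM3A, a histone H3 lysine 9 demethylase, followed the order seen for VEGFA with smaller differences. It had signals of 2848, 2913, 2610 and 2593 in ADMA, 4387, 3871 and 4062 in SS, and 1608, 2033 and 1981 in C. Every SS array lay above every ADMA array, and every ADMA array above every C array. KDM3A was 1.50-fold lower in ADMA than in SS cells (log2 difference -0.58, SE 0.08, limma adjusted p = 6.42e-05). It was 2.20-fold higher in SS than in C cells (1.14, SE 0.09, limma adjusted p = 2.97e-08). The remaining excess over control in ADMA cells, a log2 difference of 0.55 (limma adjusted p = 3.78e-05), was 0.05 when the arrays were centred on their medians, where it was not called. The fall with ADMA was not called when the mean of both KDM3A probe sets was taken (-0.85, limma adjusted p = 0.0538), the second of which was under the filter on low signal.

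NDRG1, a cytoplasmic protein tied to differentiation and stress, was higher in starved cells than in either other group. Its signals were 1716, 1964, 1682 and 1760 in ADMA, 3294, 3508 and 3384 in SS, and 1337, 1952 and 1961 in C. The SS arrays stood apart, and the ADMA and C arrays overlapped. NDRG1 fell 1.91-fold in ADMA against SS cells (log2 difference -0.93, SE 0.11, limma adjusted p = 1.35e-05), and it rose 1.97-fold in SS against C cells (0.98, SE 0.12, limma adjusted p = 3.60e-06). Between ADMA and C cells the log2 difference was 0.04 (95% interval -0.19 to 0.28, limma adjusted p = 0.749). C replicate 1 was the lowest of the 10 arrays, and without it this difference was -0.14. With arrays centred on their medians NDRG1 was lower in ADMA than in C cells (-0.46, limma adjusted p = 0.00383).

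ADM and ANKRD37 did not fall with ADMA. ADM, the precursor of the vasodilator peptide adrenomedullin, had signals of 2673, 2759, 2410 and 3262 in ADMA, 2270, 2350 and 2281 in SS, and 1434, 1471 and 1681 in C. It was lowest in C and, among the 9 genes, the only one with every ADMA array above every SS array. The log2 difference of 0.26 for ADMA minus SS (SE 0.09, limma adjusted p = 0.0277) did not pass the threshold. Without ADMA replicate 3, the lowest of the ADMA arrays, it was 0.33 and passed (limma adjusted p = 0.0076). ADM rose 1.51-fold in SS against C cells (log2 difference 0.59, SE 0.10, limma adjusted p = 6.17e-05). That rise was 0.20 and not called when arrays were centred on their medians (limma adjusted p = 0.123). Against C cells, ADM was 1.81-fold higher in ADMA (log2 difference 0.86, limma adjusted p = 1.04e-06), and this was also called after centring (0.35, limma adjusted p = 0.00613).

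ANKRD37, an ankyrin repeat protein whose promoter carries the 3 ACGTG matches printed above, changed little. It had 2149, 2404, 1904 and 2009 in ADMA, 2300, 2538 and 2265 in SS, and 1363, 1978 and 1755 in C. The ADMA arrays overlapped those of both other groups. ANKRD37 rose 1.41-fold in SS against C cells (log2 difference 0.49, SE 0.12, limma adjusted p = 0.0018). It was not called after centring of the arrays (0.11, limma adjusted p = 0.535), without SS replicate 2 (0.44, limma adjusted p = 0.0105) or with the mean of both its probe sets (0.31, limma adjusted p = 0.332). The dimmer of these probe sets was under the filter on low signal. For ADMA minus SS the difference was -0.17 (95% interval -0.40 to 0.07, limma adjusted p = 0.251). For ADMA minus C it was 0.33 (limma adjusted p = 0.0181), not called, and it was called without C replicate 2 (0.45, limma adjusted p = 0.00334) and with quantile normalization (0.38, limma adjusted p = 0.00701).

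**Figure D2:**
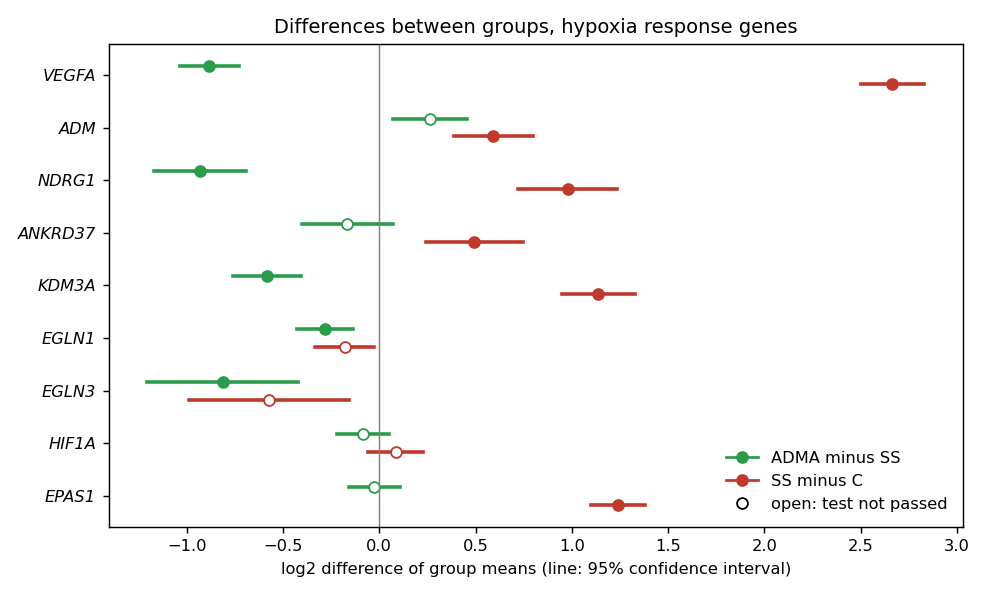
Log2 difference of group means with its 95% confidence interval for each gene, ADMA minus SS in green and SS minus C in red; open points did not pass the test. VEGFA, NDRG1 and KDM3A lie on opposite sides of 0 in the comparisons, whereas EGLN3 and EGLN1 lie below 0 in both and EPAS1 differs from 0 for SS minus C alone.

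The prolyl hydroxylases had another pattern than these HIF targets. EGLN1 (PHD2) is the main enzyme that marks HIF alpha subunits in normal oxygen, and EGLN3 (PHD3) is a HIF target itself. On their main probe sets both had their lowest mean signal in ADMA cells and their highest in C cells. The other EGLN1 probe sets, given below, had their lowest mean in SS cells. EGLN3 had signals of 409, 425, 253 and 251 in ADMA, 605, 596 and 513 in SS, and 739, 876 and 942 in C. The groups did not overlap, and the ADMA arrays lay at 2 levels, with replicates 3 and 4 below replicates 1 and 2. EGLN3 fell 1.76-fold in ADMA against SS cells (log2 difference -0.81, SE 0.18, limma adjusted p = 0.00225) and was 2.62-fold lower in ADMA than in C cells (-1.39, SE 0.18, limma adjusted p = 1.03e-05). For SS minus C the difference of -0.57 (SE 0.19, limma adjusted p = 0.017) did not pass. It passed in a fit of these 2 groups alone (limma adjusted p = 0.000904), after centring (-0.96) and without ADMA replicate 2 (limma adjusted p = 0.00944). A dimmer EGLN3 probe set gave -0.39 for ADMA minus SS (limma adjusted p = 0.0838) and -0.31 for SS minus C (limma adjusted p = 0.144), with neither called.

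The 4 probe sets of EGLN1 disagreed. The brightest, 223046_at, had signals of 2548, 2578, 2332 and 2383 in ADMA, 3151, 2987 and 2832 in SS, and 3099, 3519 and 3557 in C. Its ADMA arrays lay below all others, and the SS and C arrays overlapped. It fell 1.22-fold in ADMA against SS cells (log2 difference -0.28, SE 0.07, limma adjusted p = 0.00356), and the difference for SS minus C was -0.18 (limma adjusted p = 0.0375, not called). The other 3 probe sets gave 0.04, 0.01 and 0.23 for ADMA minus SS, with none called, and -0.35, -0.44 and -0.94 for SS minus C, all called, where 22.4% of probe sets tested fell in SS. The mean of the 4 probe sets gave a difference of -0.48 for SS minus C (limma adjusted p = 0.000686) and no call for ADMA minus SS. The fall on the brightest probe set was also lost without SS replicate 1, SS replicate 2, ADMA replicate 3 or ADMA replicate 4, with differences of -0.24 to -0.32 when any 1 of the 10 arrays was left out. The fall of EGLN1 with ADMA thus rests on 1 probe set, while its lower level in ADMA than in C cells was called on 3 of 4 (-0.46, -0.31 and -0.43, and -0.70 on the fourth), where 18.6% of probe sets fell in ADMA against C cells.

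**Figure D3:**
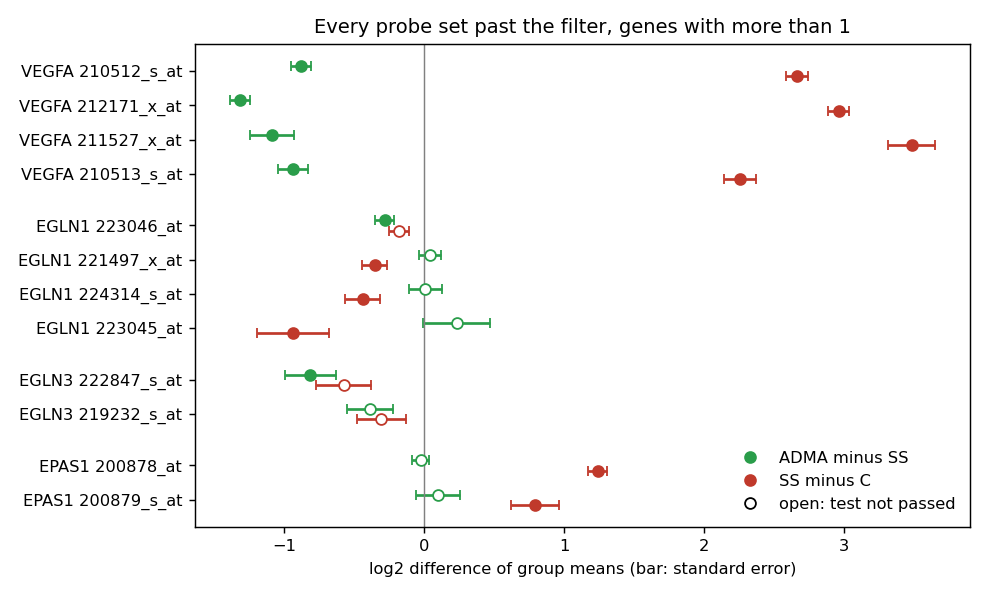
Log2 difference of group means (point, with its standard error as a bar) for every probe set past the filter of the genes with more than 1, ADMA minus SS in green and SS minus C in red, open where the test was not passed. The 4 VEGFA probe sets moved together, whereas for EGLN1 the fall with ADMA appeared on 223046_at and the fall in SS on the other 3.

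The HIF alpha subunits themselves differed from each other. EPAS1 had signals of 5341, 5412, 5429 and 4986 in ADMA, 5340, 5107 and 5715 in SS, and 2183, 2438 and 2217 in C. The ADMA and SS arrays overlapped, and all of them lay above the C arrays. EPAS1 rose 2.36-fold in SS against C cells (log2 difference 1.24, SE 0.07, limma adjusted p = 4.70e-10), and 2.32-fold in ADMA against C cells (1.22, SE 0.06, limma adjusted p = 5.70e-10). Between ADMA and SS cells the difference was -0.03 (95% interval -0.16 to 0.11, limma adjusted p = 0.774). A second EPAS1 probe set rose as well, by a log2 difference of 0.79 for SS minus C (limma adjusted p = 0.001). The last one was under the filter on low signal, and with it in the mean of the gene's probe sets the rise was 0.65 and not called (limma adjusted p = 0.0501).

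HIF1A was bright in every group and, in the values as deposited, did not pass the test in any comparison. It had 7622, 7365, 6845 and 6862 in ADMA, 7713, 7805 and 7279 in SS, and 6810, 7807 and 6888 in C. The 3 groups overlapped. Its log2 differences were -0.08 for ADMA minus SS (95% interval -0.22 to 0.05) and 0.09 for SS minus C (95% interval -0.06 to 0.23), with limma adjusted p-values of 0.303 and 0.267. The scaling decided its sign, since SS minus C was 0.27 and called with quantile normalization (limma adjusted p = 0.002) and -0.30, not called, with arrays centred on their medians (limma adjusted p = 0.0139). For ADMA minus C it was 0.002 as deposited (limma adjusted p = 0.979), and -0.50 and called lower after centring (limma adjusted p = 8.41e-05).

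The rest of the oxygen-sensing machinery changed in both directions. Of 14 further genes 12 were tested, HIF3A and EGLN2 being under the filter. In ADMA against SS cells 1 rose and 3 fell, and in SS against C cells 4 rose and 6 fell, with medians of 0.01 and -0.19. Of all genes tested 15.7% rose and 13.8% fell with ADMA, and 30.3% rose and 27.3% fell in SS, with medians of 0.03 and 0.07. After centring of the arrays 0 rose and 3 fell in ADMA, with a median of -0.11. In SS 2 then rose and 7 fell, with a median of -0.58. Of all 12344 genes centring called 901 higher and 2095 lower in ADMA, and 2014 and 5184 in SS. The all-gene medians were then -0.09 and -0.32. RBX1, a subunit of the VHL ubiquitin ligase, rose with ADMA (log2 difference 0.39, SE 0.06), which was not called after centring (0.27), and fell in SS against C cells (-1.10, SE 0.07). The coactivators CREBBP and EP300, which HIF recruits, ran the other way, at -0.66 (SE 0.08) and -0.62 (SE 0.14) for ADMA minus SS and 0.91 (SE 0.09) and 0.91 (SE 0.15) for SS minus C. CITED2, which competes with HIF for these coactivators, had -1.04 (SE 0.15) and 0.76 (SE 0.16), the second not called after centring (0.37). ARNT2, a partner of the alpha subunits, fell in SS against C cells by 0.87 on the log2 scale, as did CITED4 by 0.54. The EP300 fall with ADMA was not called without SS replicate 1 (-0.43), and those of CREBBP (-0.31) and CITED2 (-0.81) not with the mean of the probe sets. Both of these means include a probe set under the filter on low signal, which gave -0.429 for CREBBP and -0.715 for CITED2. Of the other CREBBP probe sets past the filter, 228177_at gave -0.335 and 211808_s_at 0.201. The second had mean signals of 149 in ADMA and 129 in SS, against 2651 and 4197 on the main one.

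Genes of glucose use are the best known class of HIF1 targets, and they changed in both directions. Of 23 listed genes 20 were tested, and 6 rose and 3 fell in ADMA against SS cells, with a median of 0.16. In SS against C cells 3 rose and 10 fell, with a median of -0.34, and after centring 2 rose and 16 fell, with a median of -0.73. Of all genes tested 15.7% rose and 13.8% fell with ADMA, and 30.3% rose and 27.3% fell in SS. Their medians were 0.03 and 0.07. After centring 2014 of all 12344 genes were higher in SS and 5184 lower, with a median of -0.32. PFKL, the liver-type phosphofructokinase, had a log2 difference of 0.64 (SE 0.10) for ADMA minus SS and -1.49 (SE 0.11) for SS minus C. ENO2, the neuronal enolase, and SLC2A1, the glucose transporter GLUT1, had the opposite signs. They gave -0.80 (SE 0.09) and -0.51 (SE 0.09) for ADMA minus SS and 1.60 (SE 0.10) and 1.26 (SE 0.10) for SS minus C. The SLC2A1 fall with ADMA was -0.22 and not called on another probe set. That probe set had mean signals of 141 in ADMA and 164 in SS, against 1548 and 2200 on the main one. The glycolytic enzymes ENO1 and GAPDH were higher in ADMA by 0.44 and 0.41. GAPDH was not called with quantile normalization (0.11) or centring (0.30), nor ENO1 on another probe set (0.32). That ENO1 probe set had mean signals of 152 in ADMA and 122 in SS, against 14017 and 10302 on the main one. The ENO1 probe sets 217294_s_at and 216554_s_at gave 0.62 and 0.24. The hexokinase HK1 fell by 0.37 on the log2 scale with ADMA. The HK1 call was lost without SS replicate 1 (-0.36), without SS replicate 3 (-0.30) and with limma's trend left out (-0.37). In SS against C cells GPI fell by 1.10 and HK2 by 0.90 on the log2 scale, and ALDOC rose by 0.54, which was 0.15 and not called after centring. With quantile normalization the list's median for ADMA minus SS was -0.02, with 4 higher and 3 lower, and with centring 0.04, with 2 higher and 5 lower. Of all genes quantile normalization called 1870 higher and 1730 lower, and centring 901 and 2095.

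Of the 46 other listed HIF targets, 36 were tested. In ADMA against SS cells 6 rose and 13 fell, with a median of -0.18, and in SS against C cells 18 rose and 8 fell, with a median of 0.29. After centring of the arrays the second count was 13 higher and 15 lower, with a median of -0.10. Of all genes tested 15.7% rose and 13.8% fell with ADMA, and 30.3% rose and 27.3% fell in SS. Their medians were 0.03 and 0.07. After centring 2014 of all 12344 genes were higher in SS and 5184 lower, with a median of -0.32. The nuclear receptor RORA had -1.37 (SE 0.11) for ADMA minus SS and 2.50 (SE 0.12) for SS minus C, and the transcription factor MAFF -1.27 (SE 0.07) and 2.07 (SE 0.07). INSIG2, which holds back sterol synthesis, fell by 1.15 on the log2 scale with ADMA, and the repressor BHLHE40 rose by 1.87 in SS. RAB20, a small GTPase, had 0.90 (SE 0.10) and -1.27 (SE 0.11), and with the mean of its probe sets 0.15 and -0.19, neither called. The other RAB20 probe set in that mean was under the filter on low signal. The vasoconstrictor precursor EDN1 and the carbonic anhydrase CA12 rose by 0.60 and 0.54 with ADMA, and with the mean of the probe sets they had 0.25 and 0.28, neither called. Another EDN1 probe set past the filter, 1564630_at, gave -0.53. Every CA12 probe set past the filter was higher with ADMA, by 0.42 to 1.08, and the CA12 mean includes others under it. FAM162A, a mitochondrial protein, and HILPDA, a lipid droplet protein, fell by 1.12 and 0.68 on the log2 scale in SS against C cells. FAM162A was not called on another probe set (-0.72), with mean signals of 137 in SS and 226 in C, against 3467 and 7516 on the main one. Its remaining probe sets gave -1.17, -1.21 and -0.125.

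**Figure D4:**
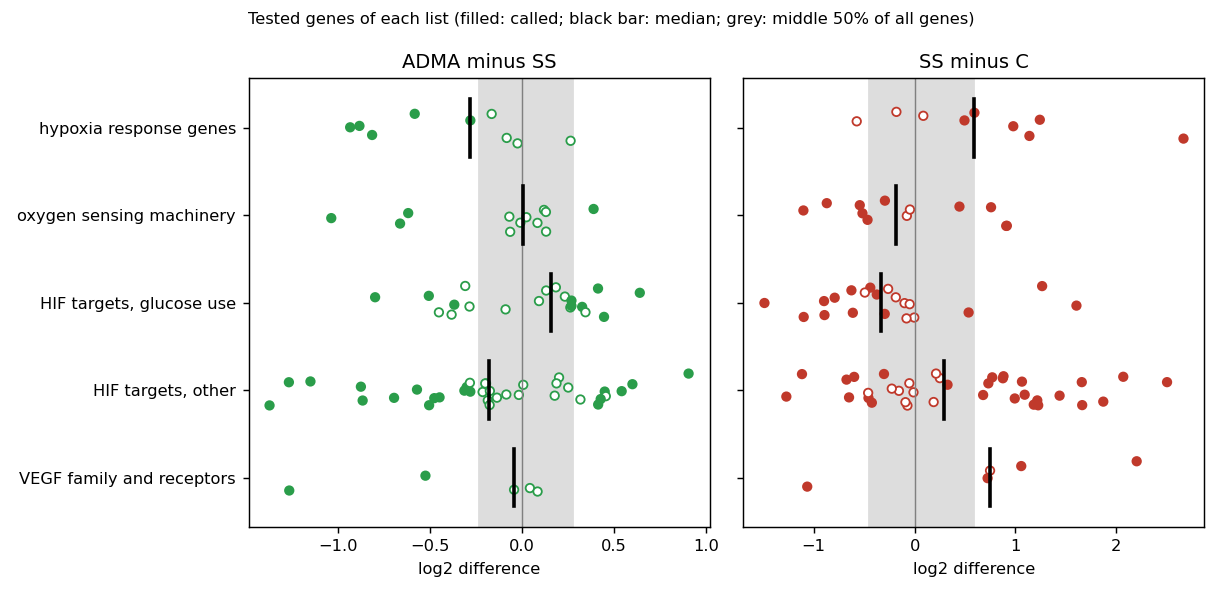
Log2 difference of every tested gene in the hypoxia response list and the related lists, ADMA minus SS on the left and SS minus C on the right; filled points were called, black bars are list medians and the grey band holds the middle 50% of all genes tested. The medians of the hypoxia response genes lie at -0.28 and 0.59, and those of the glucose list at 0.16 and -0.34.

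Few relatives of VEGFA and ADM were bright enough to test. Among 9 genes of the VEGF family and its receptors 5 were tested, KDR, FLT4 and VEGFC being under the filter. In ADMA against SS cells 0 rose and 2 fell, with a median of -0.04, where 15.7% of all genes rose and 13.8% fell. In SS against C cells 3 rose and 1 fell, with a median of 0.75, where 30.3% of all genes rose and 27.3% fell. After centring the median for SS minus C was 0.36, with 2 higher and 1 lower, against -0.32 over all genes. The coreceptor NRP1 fell in ADMA (log2 difference -1.26, SE 0.29), and without SS replicate 1 the difference was -1.09 and not called (limma adjusted p = 0.0188). NRP2 fell by 0.53 on the log2 scale with ADMA, a call lost when any of 8 arrays was left out, at -0.47 to -0.56. Every NRP2 probe set past the filter was lower with ADMA, at -0.08 to -1.71. NRP2 rose by 0.72 in SS, and was not called with quantile normalization (0.44) or centring (0.33). Its probe sets past the filter ran from -0.28 to 1.32 for SS minus C. The ligand VEGFB fell by 1.06 in SS against C cells, the opposite of VEGFA. PGF, another ligand, rose by 1.06 on 1 of 2 probe sets, the other giving -0.13. FLT1 (VEGFR1) rose by 2.20 in SS on the probe set 232809_s_at alone. The 2 other FLT1 probe sets past the filter gave -0.32 and -0.58, so no direction is given for FLT1.

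Of the 6 genes of the adrenomedullin system 2 were tested. In ADMA against SS cells neither was called, with a median of -0.01. In SS against C cells PAM, the enzyme that amidates adrenomedullin, rose by 0.92 (SE 0.07). The receptor partner RAMP1 rose by 0.69 (SE 0.17), but was not called with quantile normalization (0.38), after centring (0.30) or without C replicate 2, C replicate 3 or SS replicate 3. Of 12 relatives of the other genes 8 were tested. In ADMA against SS cells 3 rose and 1 fell, and in SS against C cells 2 rose and 4 fell, with medians of 0.15 and -0.37. Of all genes tested 15.7% rose and 13.8% fell with ADMA, and 30.3% rose and 27.3% fell in SS. After centring the list's medians were 0.04 and -0.76, the second with 1 higher and 5 lower. Those of all genes were then -0.09 and -0.32. NDRG2 ran opposite to NDRG1, at 0.91 (SE 0.17) for ADMA minus SS and -1.93 (SE 0.18) for SS minus C, and NDRG3 fell by 0.95 on the log2 scale in SS. JMJD1C, of the KDM3 demethylase family, had -0.47 (SE 0.08) and 2.32 (SE 0.09). Its fall with ADMA was -0.18 and not called with the mean of its probe sets, some of them under the filter. The other JMJD1C probe sets past the filter gave -0.202, -0.042 and 0.115 for ADMA minus SS, and those under it 0.002 and -0.465. KDM3B rose by 0.41 in SS, which was 0.02 after centring. CA2, a cytoplasmic carbonic anhydrase, had 0.65 (SE 0.08) and -2.51 (SE 0.09).

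Among all genes tested, the pattern of VEGFA over the 10 arrays was most like that of TNFAIP3, ACSL5, PHLDA1, CXCL1 and TUFT1. The likeness was measured as Pearson's r of log2 signal, and it was 0.999 for TNFAIP3, 0.999 for ACSL5, 0.998 for PHLDA1, 0.997 for CXCL1 and 0.996 for TUFT1. The arrays fall into 3 groups, so these values mostly describe the group means. TNFAIP3, a ubiquitin-editing inhibitor of NF-κB signalling, had signals of 717, 758, 639 and 634 in ADMA, 1203, 1133 and 1133 in SS, and 236, 230 and 259 in C. PHLDA1 had 6036, 6126, 6071 and 5618 in ADMA, 12085, 12637 and 12090 in SS, and 1645, 1695 and 1906 in C. The 3 groups did not overlap for either gene. Among the hypoxia response genes r with VEGFA was 0.953 for KDM3A, 0.934 for EPAS1, 0.799 for ANKRD37, 0.752 for ADM, 0.706 for NDRG1 and 0.363 for HIF1A, and -0.494 for both EGLN1 and EGLN3.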

How the data were processed

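The deposited table holds 1 intensity per probe set and array on a linear scale, which the authors made with MAS 5.0. It was used as deposited, with every array at a trimmed mean of 500.1, and log2 was taken with no pseudocount. Of 54675 probe sets, 41091 carry 1 symbol in the platform annotation, 1801 several and 11721 none, beside 62 controls. Genes had to average a signal of at least 76.2, the 50th percentile of the non-control probe sets. A single linear model of the 10 arrays was fitted in limma 3.58.1 (R 4.3.3; lmFit, then eBayes with its trend option), and p-values were adjusted by Benjamini-Hochberg over 12344 genes, or over all probe sets past the filter where single probe sets are compared. limma was used in place of the study's SAM, at its thresholds, an adjusted p below 0.01 with a fold not below 1.2. The same steps were tested on simulated data. An array's background level was the 95th percentile of its Bacillus control probe sets, and the main probe sets of the 9 genes were above it on all 10 arrays. The number of arrays limits the precision. No pair of arrays held identical values.

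The hypoxia response genes and the related lists were chosen with earlier results of these data known. Named were all 9 measured genes in each comparison, in each related list up to 3 called genes with the largest rise and up to 3 with the largest fall for ADMA minus SS and SS minus C, and the 5 genes most like VEGFA. Alternatives were quantile normalization, median centring, no filter and a 75th percentile filter, limma with no trend, limma weighting the arrays, 2 groups alone, another threshold, other probe set choices, a pseudocount of 16, a floor at background, the replicate number as a block and leaving out each array. Promoter sequences are from RefSeq, GRCh38.p14; those of VEGFA and NDRG1 were not used here. Plots were made in matplotlib 3.10.9 under Python 3.11.15.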

Additional observations from a re-analysis of the deposited data

Results flagged for a closer look

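Among 50 genes examined for a single array far from the rest of its group, PGF on ADMA replicate 1 stood apart, with a signal of 826 against 549 to 567 on the other 3 ADMA arrays. The gap took a share of 0.923 of the group's range, over Dixon's 95% critical value for 4 samples. Chance marks about 1 in 20 such groups, and the groups of 3 were not examined.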

How the results depend on the processing

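The fall of VEGFA and NDRG1 with ADMA and the rise of VEGFA, KDM3A and NDRG1 with starvation kept direction and call under every alternative run. Centring each array on its median gave 901 genes higher for ADMA minus SS, 2014 higher and 5184 lower for SS minus C, and 1209 higher and 6101 lower for ADMA minus C. Of the hypoxia response genes it called 2 lower for SS minus C and 4 for ADMA minus C. Averaging the probe sets of each gene gave 942 genes lower for ADMA minus SS, and of the hypoxia response genes 3 lower for ADMA minus SS and 1 for SS minus C. Without the trend 3 were lower for ADMA minus SS. In the 2 groups alone 1 was lower for SS minus C. At an adjusted p under 0.05 with no fold minimum, 1 was higher for ADMA minus SS and 2 were lower for SS minus C. The cause of these shifts was not tested.

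Signs turned under some alternatives, most of them at differences near 0. Centring gave -0.30 for HIF1A in SS minus C, and -0.46 for NDRG1, -0.18 for ANKRD37 and -0.50 for HIF1A in ADMA minus C, NDRG1 and HIF1A being called. The mean of the probe sets gave 0.60 for EPAS1 in ADMA minus SS and -0.13 for ANKRD37 in ADMA minus C. Both means include a probe set under the filter on low signal. Avoiding shared probe sets gave -0.58 for FLT1 in SS minus C.

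Leaving out each array gave 0 to 1 hypoxia response genes higher and 3 to 5 lower for ADMA minus SS, 5 to 6 higher and 0 to 1 lower for SS minus C, and 4 to 5 higher for ADMA minus C. The EPAS1 difference for ADMA minus SS ran from -0.0629 to 0.0183, and for ADMA minus C NDRG1 ran from -0.14 to 0.14 and HIF1A from -0.0333 to 0.0653.

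The replicate numbers did not pair the arrays, with correlations of deviations between -0.0735 and 0.102 for arrays of the same number. With the replicate number as a block, EPAS1 had 0.0033 for ADMA minus SS, EGLN1 (-0.27, limma adjusted p = 0.0158) and HK1 (-0.37, limma adjusted p = 0.0107) were not called, and ANKRD37 was called higher in ADMA than in C cells (0.35).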
